A study of Mus musculus with 3 samples.

Results

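The genes described here were the colony-stimulating factors and their receptors, which comprised the ligand genes *Csf1*, *Csf2*, *Csf3* and *Il34* and the receptor chain genes *Csf1r*, *Csf2ra*, *Csf2rb*, *Csf2rb2* and *Csf3r*. They were chosen by name, as all probe sets that the platform annotation assigned to a single one of these 9 gene symbols. This gave 16 probe sets for 9 of the 18193 genes that had such a probe set, out of 45037 probe sets in all. The RNA came from the 4T1 model, a BALB/c breast carcinoma line that forms lung metastases after it is implanted in the fat pad of mice of that strain, and was hybridised to 3 Affymetrix mouse arrays. The BMDM array was made from macrophages differentiated in culture from the bone marrow of healthy mice. The pTAMs array was made from tumor-associated macrophages (TAMs) of the primary tumor and the mTAMs array from those of the metastatic lung. For its PCR assays, the paper describes TAMs of matched sites, isolated 5 weeks after tumor cells were given. Its passage on the arrays names neither the matching nor the time. The labels name no engineered allele, and the study's methods describe the TAMs as sorted for CD11b and for the macrophage antigen encoded by *Adgre1*. The growth factor in the BMDM culture, any gate on Ly6C for these arrays and the number of animals per array are not given in the sources used here. There was 1 array in each of 3 groups, so no value below has an error across animals and no test between groups was possible.

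Colony-stimulating factors are secreted proteins that control the survival, growth and maturation of myeloid cells. CSF1 and interleukin-34 both bind CSF1R, a receptor tyrosine kinase that macrophages need for survival. GM-CSF, the product of *Csf2*, binds a specific alpha chain encoded by *Csf2ra* together with a beta chain that is shared with the receptors of interleukin-3 and interleukin-5. Mice have a second, closely related beta chain, encoded by *Csf2rb2*, that serves interleukin-3. G-CSF, the product of *Csf3*, drives the formation and release of neutrophils through the receptor encoded by *Csf3r*. In tumors, CSF1 recruits and maintains macrophages, and 4T1 tumors are known for their release of G-CSF.

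Values are RMA signals on the log2 scale, so a difference of 1 is a 2-fold difference. A value at or below 5.56 was treated as background. This floor is the 95th percentile over 84 probe sets of sensory receptors (smell, pheromones and taste), most of which were assumed to be silent in macrophages. It was exceeded by 10726 genes on the BMDM array, 10884 on the pTAMs array and 10905 on the mTAMs array. A gene was compared between arrays if it lay above the floor on at least 1 of them, and was read from whichever of its probe sets had the highest mean signal. As a measure of technical spread, probe sets of the same gene differed in their log2 differences with an SD of 0.33 for pTAMs minus BMDM, 0.42 for mTAMs minus BMDM and 0.26 for mTAMs minus pTAMs. Differences between animals, sorts and arrays are not part of this spread. In such bulk samples, a change in the number of cells that express a gene and a change in its RNA per cell cannot be told apart.

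Promoters are shown for *Csf3r* and *Csf2rb2*, which exceeded BMDM 2-fold on both TAM arrays, and for *Csf2ra*, which did so in mTAMs alone, because the growth factor receptor genes of myeloid cells are known targets of the transcription factor PU.1. The letters are the 250 bases before the annotated start site, 5′ to 3′ in the direction of transcription, from RefSeq for the build GRCm38.p6 of the strain C57BL/6J, and the capitals mark GAGGAA, the core of a PU.1-type site, or its reverse complement.
Csf3r, chr4:126024409-126024658, plus strand: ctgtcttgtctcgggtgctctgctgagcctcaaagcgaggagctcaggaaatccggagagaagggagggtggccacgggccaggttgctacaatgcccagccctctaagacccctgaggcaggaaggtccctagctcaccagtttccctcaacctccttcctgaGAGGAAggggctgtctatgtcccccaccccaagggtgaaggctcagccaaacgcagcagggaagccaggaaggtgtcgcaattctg
Csf2rb2, chr15:78305722-78305971, minus strand: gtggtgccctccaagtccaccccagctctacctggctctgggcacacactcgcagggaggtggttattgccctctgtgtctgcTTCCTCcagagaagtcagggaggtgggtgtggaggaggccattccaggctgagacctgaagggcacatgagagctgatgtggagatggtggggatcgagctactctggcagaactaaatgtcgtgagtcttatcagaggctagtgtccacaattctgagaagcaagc
Csf2ra, chr19:61228419-61228668, minus strand: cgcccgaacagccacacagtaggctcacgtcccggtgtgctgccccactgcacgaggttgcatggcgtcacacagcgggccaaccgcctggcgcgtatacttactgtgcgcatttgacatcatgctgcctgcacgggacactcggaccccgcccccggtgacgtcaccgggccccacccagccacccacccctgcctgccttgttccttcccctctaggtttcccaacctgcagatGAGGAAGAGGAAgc
The promoter of the ligand *Csf1*, which exceeded BMDM 2-fold on both TAM arrays, is shown beside them as a sequence without this core.
Csf1, chr3:107760470-107760719, minus strand: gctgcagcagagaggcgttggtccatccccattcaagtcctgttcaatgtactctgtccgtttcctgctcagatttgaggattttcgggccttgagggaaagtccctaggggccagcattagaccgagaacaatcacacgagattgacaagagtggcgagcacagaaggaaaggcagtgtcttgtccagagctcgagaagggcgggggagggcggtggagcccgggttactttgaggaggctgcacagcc

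Promoters of 5 of the 9 members were searched, namely these 4 and *Csf2*. That of *Csf1r*, a receptor gene of the same family, was not among them. The core GAGGAA was present on either strand in 3 of the 5 searched, those of *Csf3r*, *Csf2rb2* and *Csf2ra*. It was present in 23.3% of 32851 promoters of the same length. Because members, *Csf1r* among them, were left out of the 5, the count does not describe the whole family. Counted back from the start site, the match began at base -86 in *Csf3r* and at -167 in *Csf2rb2*, and *Csf2ra* had adjoining matches that began at -14 and -8. Of the other 4 motifs searched on both strands, the AP-1-type TGANTCA and the CK-1 core GAGATTCC had no match in the stretches searched for the 5 genes. Each stretch lies directly before the annotated start site, and bases further upstream or after that site were not searched. Whether *Csf2* has a CK-1 core there was not tested. The C/EBP-type TTGCNNAA matched in *Csf2* and the GAS-type TTCNNNGAA in *Csf2rb2*, each in 1 place. They are present in 6.75% (AP-1-type), 0.755% (CK-1), 9.56% (C/EBP-type) and 7.02% (GAS-type) of all these promoters. The motifs were chosen after the sequences had been seen, and a match is a description of letters.

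Both TAM arrays had higher signals than BMDM for most of the receptor chains and for *Csf1* and *Csf3*, whereas the receptor of CSF1 itself was at a similar, high signal on all 3 arrays. Of the 9 members, 7 lay above the floor on at least 1 array, and *Csf2* and *Il34* lay below it on all 3. In pTAMs against BMDM, 2-fold or larger differences were found for 5 of the 9 members, all higher and 0 lower, where 9.21% of all 11229 compared genes were higher and 7.85% lower. In mTAMs against BMDM, 6 of the 9 were higher and none lower, with 12.0% of 11305 compared genes higher and 15.1% lower. These comparisons share the BMDM array. In mTAMs against pTAMs, *Csf1* and *Csf3r* were at least 2-fold higher and *Csf3* was 2-fold lower, while 5.59% of 11141 compared genes were higher and 2.71% lower. *Csf3* entered the comparisons with BMDM only through its signal in the TAMs.

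**Figure D1:**
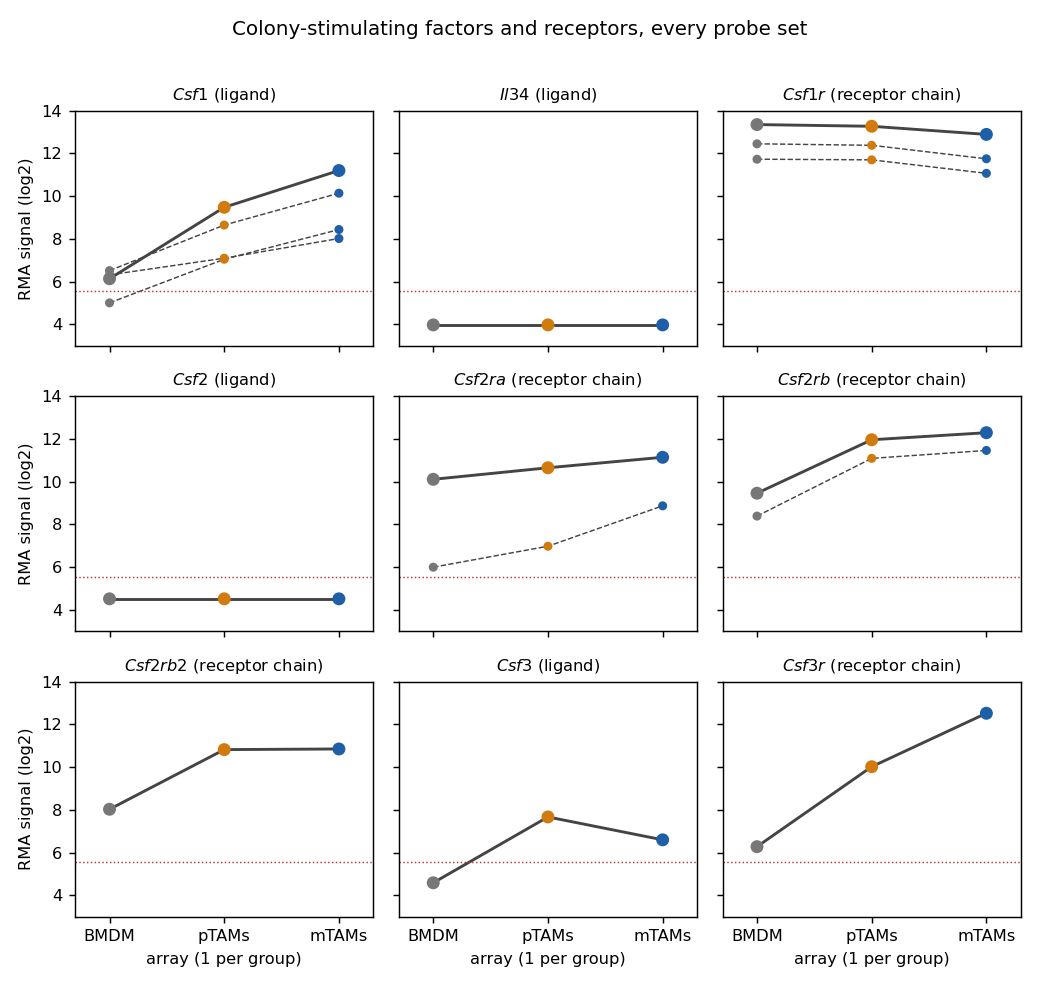
RMA signals (vertical axes, log2) of every probe set of the 9 genes on the BMDM, pTAMs and mTAMs arrays (horizontal axes), 1 point per array. Solid lines join the probe set read for the gene, dashed lines the other probe sets, and the dotted line is the floor of 5.56. *Csf3r* goes from 6.28 in BMDM to 12.52 in mTAMs, while *Csf1r* stays between 12.89 and 13.35.

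*Csf1*, which encodes the main growth factor of macrophages, was read at 6.14 in BMDM, 9.48 in pTAMs and 11.20 in mTAMs. The BMDM array was near the floor and the mTAMs array the highest. The signal was 10.1-fold higher in pTAMs and 33.4-fold higher in mTAMs than in BMDM, and 3.29-fold higher in mTAMs than in pTAMs. *Csf1* had 4 probe sets, and on each of them mTAMs were highest and BMDM lowest, but the size differed. The second gave 6.52, 8.65 and 10.14 in BMDM, pTAMs and mTAMs, and the third 6.32, 7.10 and 8.02. The fourth, whose name marks probes that can bind other transcripts, gave 5.01, 7.05 and 8.44. Over the 4 probe sets, the log2 difference ranged from 0.78 to 3.34 for pTAMs minus BMDM, from 1.70 to 5.06 for mTAMs minus BMDM and from 0.92 to 1.72 for mTAMs minus pTAMs. The probe set with the smallest difference was thus below 2-fold in pTAMs against BMDM and in mTAMs against pTAMs. As read, *Csf1* ranked 97th from the top among 11305 genes in mTAMs against BMDM and 241st among 11141 in mTAMs against pTAMs. *Il34*, which encodes the other ligand of CSF1R and is known from neurons and keratinocytes, had 1 probe set, at 3.98 on all 3 arrays. No fold can be given for it, because no array lay above background.

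*Csf1r*, the defining receptor of the macrophage lineage, was read at 13.35 in BMDM, 13.27 in pTAMs and 12.89 in mTAMs. The arrays lay close together, with mTAMs lowest. pTAMs were 1.06-fold below BMDM, and mTAMs were 1.38-fold below BMDM and 1.30-fold below pTAMs. The other probe sets read 12.45 and 11.73 in BMDM, 12.38 and 11.70 in pTAMs, and 11.75 and 11.07 in mTAMs. On all 3 probe sets mTAMs were lowest, with log2 differences from -0.70 to -0.46 against BMDM and from -0.63 to -0.38 against pTAMs. The difference between pTAMs and BMDM, from -0.08 to -0.03, was smaller than the spread of 0.33 between probe sets. Relative to all genes, *Csf1r* thus did not stand out in any comparison, with 48.4% of compared genes below it in pTAMs minus BMDM, 35.0% in mTAMs minus BMDM and 25.8% in mTAMs minus pTAMs.

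*Csf2*, which encodes GM-CSF, had 1 probe set, which read 4.52 on all 3 arrays and so lay below the floor throughout. Its receptor chains were well above it. *Csf2ra*, which encodes the chain that binds GM-CSF alone, was read at 10.11 in BMDM, 10.65 in pTAMs and 11.14 in mTAMs. It was 1.45-fold higher in pTAMs and 2.04-fold higher in mTAMs than in BMDM, and each array exceeded the one before it by less than 2-fold. A second probe set of *Csf2ra* gave 6.0, 6.98 and 8.87 in the same order, with differences of 0.98, 2.87 and 1.89 for pTAMs minus BMDM, mTAMs minus BMDM and mTAMs minus pTAMs. The probe sets of *Csf2ra* had the same order of arrays and disagreed in size by more than the spread of 0.42 in mTAMs against BMDM. With each array centred on its median, the difference of the first in mTAMs against BMDM was 0.96, below the threshold of 1.

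*Csf2rb*, which encodes the beta chain shared by the receptors of GM-CSF, interleukin-3 and interleukin-5, was read at 9.46 in BMDM, 11.96 in pTAMs and 12.29 in mTAMs. It was 5.66-fold higher in pTAMs and 7.11-fold higher in mTAMs than in BMDM, and mTAMs exceeded pTAMs by 1.26-fold. Its second probe set gave 8.39, 11.09 and 11.46, with differences of 2.70, 3.07 and 0.37. *Csf2rb2*, its close relative and neighbor, was read at 8.03 in BMDM, 10.82 in pTAMs and 10.85 in mTAMs. It was 6.92-fold higher in pTAMs and 7.06-fold higher in mTAMs than in BMDM, and the TAM arrays differed by 0.03. The beta chain genes thus had a nearly equal shape over the arrays, with a root mean square distance of 0.14 between their values after each gene's mean was subtracted. RefSeq annotates 0 genes between them, and probes for near-identical copies can bind both transcripts, so their values may not be separate. A further probe set that the annotation gives to both beta chain genes was left out of the counts.

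Genes whose proteins share the beta chain with GM-CSF were mostly at background. *Il3*, *Il5* and *Il5ra* lay below the floor on all 3 arrays. *Il3ra*, the alpha chain for interleukin-3, was read at 6.84 in BMDM and at 6.70 in both pTAMs and mTAMs. No member of this list of 4 differed by 2-fold in any comparison.

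*Csf3*, which encodes G-CSF, was read at 4.59 in BMDM, 7.67 in pTAMs and 6.60 in mTAMs, from 1 probe set. It was below the floor in BMDM and highest in pTAMs, the reverse of the order that *Csf1* had within the TAMs. As BMDM lay at background, it was at least 4.32-fold higher in pTAMs and at least 2.06-fold higher in mTAMs. It was 2.10-fold lower in mTAMs than in pTAMs, a log2 difference of -1.07 that lay just past the threshold. In that comparison 2.19% of all genes had a lower difference.

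*Csf3r*, the receptor of G-CSF, had the largest differences of the 6 members that lay above the floor on all 3 arrays, in all 3 comparisons, by the probe set read for each gene. It was read at 6.28 in BMDM, 10.02 in pTAMs and 12.52 in mTAMs, from 1 probe set. BMDM were just above the floor and mTAMs far above both other arrays. The signal was 13.4-fold higher in pTAMs and 75.6-fold higher in mTAMs than in BMDM, and 5.66-fold higher in mTAMs than in pTAMs. By measured difference, background values included, it ranked 153rd of 11229 genes in pTAMs against BMDM, 43rd of 11305 in mTAMs against BMDM and 93rd of 11141 in mTAMs against pTAMs. Within the TAMs, the ligand *Csf3* and its receptor thus went in opposite directions.

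**Figure D2:**
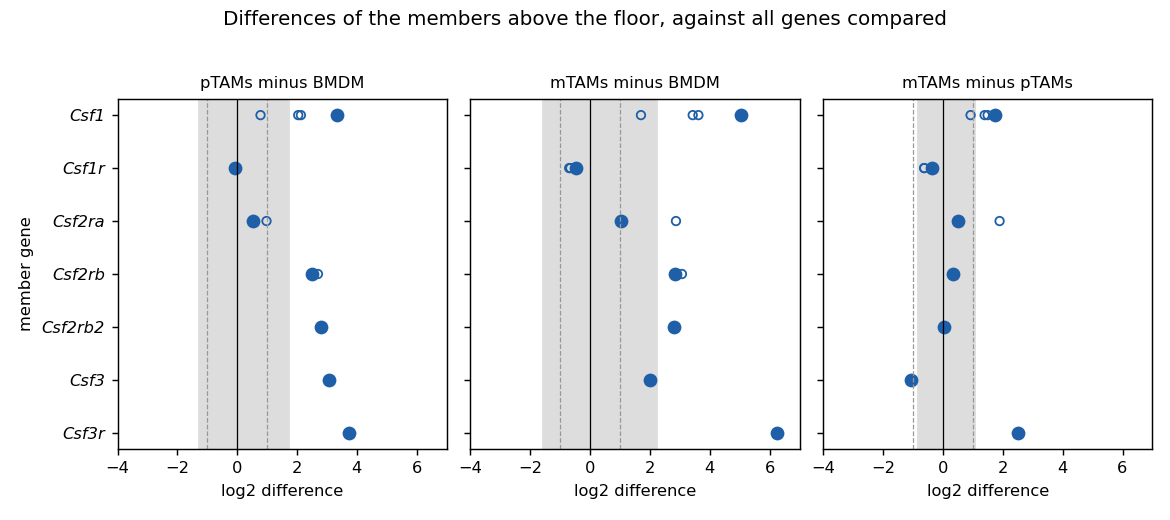
Log2 differences (horizontal axes) of the 7 members above the floor (vertical axis) in the 3 comparisons. Filled points are the probe set read for the gene, open points its other probe sets, dashed lines mark 2-fold, and the grey band spans the 5th to 95th percentile of all genes compared, which is -1.59 to 2.22 for mTAMs minus BMDM. *Csf1* (5.06) and *Csf3r* (6.24) lie far outside the band there, and *Csf1r* (-0.46) lies within it.

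Markers of other cells were higher on the same arrays as *Csf3r* and *Csf1*. Neutrophils carry the G-CSF receptor, and of 13 neutrophil markers on the arrays, 11 exceeded BMDM by 2-fold or more in pTAMs and 12 did so in mTAMs, while 10 were higher in mTAMs than in pTAMs by that measure. Their mean log2 signal was 6.12 in BMDM and reached 9.86 in pTAMs and 11.68 in mTAMs, and their summed linear signal was 1746, 37548 and 87555. The granule genes *Ngp* (7.46, 10.53 and 12.71) and *Mpo* (5.44, 6.32 and 8.98) and the chemokine receptor gene *Cxcr2* (5.14, 8.18 and 11.32) had the same order of arrays as *Csf3r*. *Elane*, a gene of immature granulocytes, lay at background in BMDM (5.42) and pTAMs (5.48) and at 5.89 in mTAMs. The part of neutrophils in the signal of *Csf3r* was not tested.

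The 10 macrophage markers lay above the floor on all arrays. Their mean was 10.89 in BMDM, 11.57 in pTAMs and 11.06 in mTAMs, and their summed signal was 48661, 46503 and 42407. Against BMDM, 5 were 2-fold higher and 1 lower in pTAMs, and 3 higher and 1 lower in mTAMs. The 3 that were lower in mTAMs than in pTAMs were *Cd163* (6.66, 9.69 and 7.58), *Fcgr1* (10.91, 12.03 and 10.58) and *Aif1* (8.84, 11.70 and 10.62), and none was higher. *Adgre1*, used in the sort, read 11.93 in BMDM, with log2 differences of -1.93 in pTAMs and -1.87 in mTAMs, and *Itgam*, which encodes CD11b, read 10.46, 11.90 and 11.61. Macrophages of the alveoli are known to need GM-CSF, and 7 markers of these cells averaged 4.35 in BMDM, 6.27 in pTAMs and 8.94 in mTAMs. All 7 lay below the floor in BMDM, 3 were above it in pTAMs and 7 in mTAMs, and their summed signal was 155, 2811 and 15462. Among them *Siglecf* lay below the floor in BMDM (4.13) and pTAMs (4.57) and at 8.91 in mTAMs. *Chil3* had the highest signal of the 7 in pTAMs (11.20) and mTAMs (13.50). *Marco* (6.31), *Fabp1* (6.34) and *Krt79* (6.58) lay nearer the floor in mTAMs. The part of alveolar macrophages in the signals of *Csf2ra* and *Csf2rb* was not tested.

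Cells other than macrophages can make CSF1 and G-CSF. Markers of epithelium or carcinoma averaged 4.96 in BMDM, 7.96 in pTAMs and 7.38 in mTAMs over 8 genes, with a summed signal of 284, 4221 and 2282. As for *Csf3*, pTAMs were highest, and *Krt14* and *Krt5* lay below the floor on all 3 arrays. The 10 fibroblast markers had means of 4.92, 6.05 and 6.93, and a summed signal of 317, 902 and 4584, with *Lum*, *Thy1* and *Postn* below the floor throughout. T cells are a known source of GM-CSF, and the mean of 6 T cell markers was 5.75 in BMDM, 5.70 in pTAMs and 6.42 in mTAMs, with *Cd3d* at 5.86, 6.03 and 8.31. *Cd2* read 6.35, 5.62 and 7.67, whereas *Cd3e* (6.49, 6.52 and 6.57) and *Cd4* (6.19 on all 3 arrays) hardly differed between the arrays. *Cd3g* and *Cd8a* lay below the floor throughout. The part of these cells in the signals of *Csf1* and *Csf3* was not tested.

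**Figure D3:**
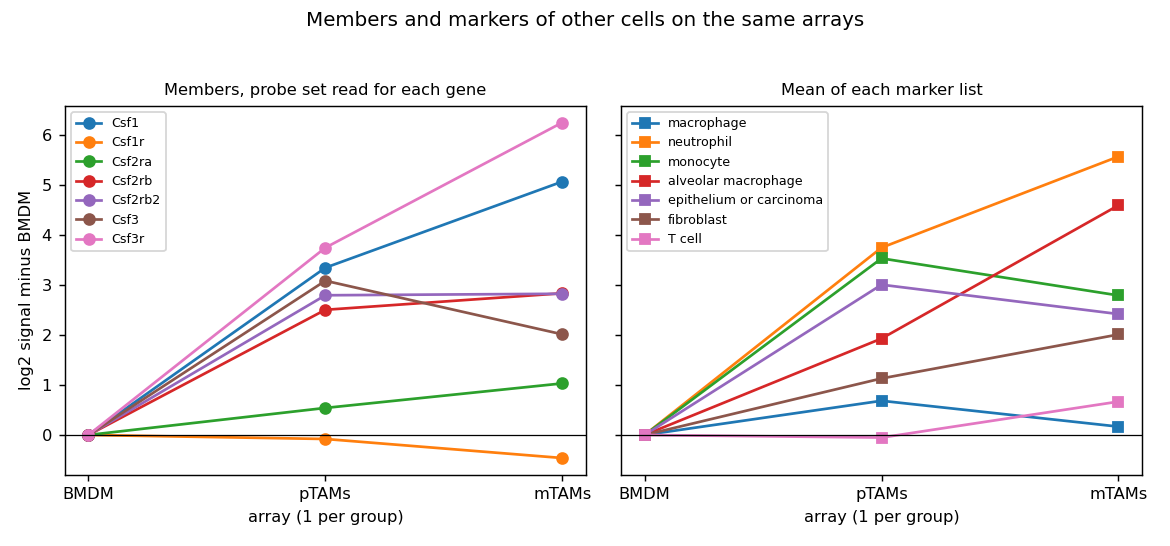
Log2 signal minus that of BMDM (vertical axis) on the 3 arrays (horizontal axes) for the 7 members above the floor (left) and for the mean of 7 lists of cell type markers (right), 1 point per array. *Csf3r* reaches 6.24 in mTAMs, and the neutrophil list, at 11.68 in mTAMs and 6.12 in BMDM, lies highest of the 7 lists in mTAMs.

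Genes that act with, upstream or downstream of these ligands and receptors, or are related to them, were described by 12 lists, which together held 85 genes. Of 72 compared, 29 lay 2-fold or more above BMDM in pTAMs and 6 lay below it (median log2 difference 0.60, against -0.07 over all genes). In mTAMs against BMDM, 33 of 72 were higher and 5 lower (median 0.81, or -0.14 over all genes). With values at background raised to the floor, 27 were higher in pTAMs and 31 in mTAMs. Between the TAMs, 10 of 71 were higher and 5 lower in mTAMs (median 0.07, or -0.08 over all genes). Over all genes compared, 9.21% were higher and 7.85% lower in pTAMs than in BMDM. The shares were 12.0% and 15.1% in mTAMs against BMDM, and 5.59% and 2.71% in mTAMs against pTAMs.

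Of 17 compared genes for proteins that carry the CSF1R signal, 2 were higher and 1 lower in pTAMs than in BMDM, 1 was higher and 1 lower in mTAMs, and none differed by 2-fold between the TAMs. The counts in pTAMs were near the share over all genes, 9.21% higher and 7.85% lower. *Tyrobp*, which encodes the adaptor DAP12, read 13.46 in BMDM, 13.37 in pTAMs and 13.68 in mTAMs. *Src*, a kinase gene, was 2.99-fold higher in pTAMs than in BMDM, although its other probe set differed by only 0.51 on the log2 scale. *Socs1*, a signaling inhibitor, was 2.01-fold higher there, and *Pik3r1*, a PI3-kinase subunit, was 2.13-fold lower, with other probe sets from -1.60 to 0.28. In mTAMs against BMDM, the adaptor gene *Gab2* was 3.01-fold higher, with 0.31 at least from its other probe sets, and the kinase gene *Fyn* was 2.39-fold lower.

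Genes that CSF1 is known to induce in macrophages were divided. Of 8, 4 were higher and 2 lower in pTAMs than in BMDM (median 1.49), and 5 were higher and 2 lower in mTAMs (median 1.36). The higher ones were led by immediate early transcription factors, which many other signals and tissue handling induce as well. *Egr1* was 36.5-fold and 107-fold higher in pTAMs and mTAMs, *Junb* 11-fold and 30.3-fold, and *Fos* 7.57-fold and 10.4-fold. The lower ones were *Ccnd1*, which encodes cyclin D1 of the cell cycle, at 12.40 in BMDM, 10.92 in pTAMs and 9.78 in mTAMs, and *Plau*, which encodes urokinase, at 13.03, 11.14 and 10.33. Each was highest in BMDM and lowest in mTAMs, in the reverse order of *Csf1*. Between the TAMs, *Egr1* (2.93-fold) and *Junb* (2.75-fold) were higher and *Ccnd1* (log2 difference -1.14) lower in mTAMs. Of 7 transcription factors that act on the *Csf1r* gene, *Egr2* was 8.57-fold and *Cebpb* 4.50-fold higher in pTAMs than in BMDM. In mTAMs they were 9.58-fold and 6.63-fold higher, and *Ets2* was 3.03-fold higher. None of the 7 was 2-fold lower in either, and *Irf8* was 2.08-fold lower in mTAMs than in pTAMs. *Spi1*, which encodes PU.1, read 10.52, 10.70 and 11.49. Of the other receptors of interleukin-34, *Ptprz1* was below the floor throughout and *Sdc1*, which encodes syndecan-1, exceeded BMDM 9.0-fold in pTAMs, with mTAMs 6.45-fold below pTAMs.

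For GM-CSF, 4 of 8 signal carriers and inhibitors were at least 2-fold higher and none lower than in BMDM, in pTAMs (median 1.03) and in mTAMs (median 1.01). The inhibitor gene *Socs2* was at least 13.4-fold and at least 5.06-fold higher in pTAMs and mTAMs, *Pim1*, a survival kinase gene, 9.19-fold and 20.1-fold, and *Cish*, an inhibitor gene that STAT5 induces, 3.84-fold and 2.31-fold. By the probe sets read, the STAT5 genes were within 2-fold, with *Stat5a* at 7.70, 7.61 and 7.31 and *Stat5b* at 8.13, 8.27 and 8.93. The other probe set of *Stat5b* differed from BMDM by 0.49 in pTAMs and 1.95 in mTAMs, and by 1.46 between mTAMs and pTAMs. Between the TAMs, *Pim1* was 2.19-fold higher and *Socs2* 2.64-fold lower in mTAMs. Of 6 genes that GM-CSF can induce, 2 were higher and 1 lower in pTAMs than in BMDM, 3 were higher in mTAMs than in BMDM (2 with background raised to the floor), and 1 was higher and 1 lower in mTAMs than in pTAMs. Among them *Bhlhe40*, a transcription factor gene, was 13.9-fold higher in pTAMs and 11.4-fold higher in mTAMs than in BMDM. *Ccl17*, a T cell chemokine gene, was at least 3.97-fold higher in pTAMs and at least 1.41-fold higher in mTAMs. *Pparg*, a regulator of alveolar macrophages, read 8.01 in BMDM, 5.55 in pTAMs and 7.75 in mTAMs, so that it was at background in pTAMs alone and at least 4.56-fold higher in mTAMs.

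The 8 genes listed as induced by G-CSF or expressed by granulocytes had the same order of arrays as *Csf3r*. Of these 8, 8 exceeded BMDM by 2-fold in mTAMs (median 3.42) and 6 in pTAMs (median 1.88). In mTAMs against pTAMs, 5 of 8 were higher (median 1.26), and none was 2-fold lower in any comparison. Whether they responded to G-CSF was not tested. *Mmp9*, a gelatinase gene of neutrophils, exceeded BMDM at least 38.3-fold in pTAMs and at least 100-fold in mTAMs. *Cd177*, a neutrophil surface protein gene, was at least 7.78-fold and at least 67.6-fold higher, and 8.69-fold higher in mTAMs than in pTAMs. *Mmp8* (6.28-fold) and *Cebpd* (5.70-fold, but only 0.22 on the log2 scale by its other probe set) were also higher in mTAMs than in pTAMs. Of the list, *Mmp8*, *Mmp9* and *Cd177* stand among the neutrophil markers too. Of 6 G-CSF signal carriers and inhibitors, 3 were higher in pTAMs and 4 in mTAMs than in BMDM, and none differed by 2-fold between the TAMs. *Socs3*, which limits G-CSF receptor signaling, was at least 78.8-fold higher in pTAMs and at least 146-fold in mTAMs, *Stat3* 2.95-fold and 3.89-fold, and *Jak2* 3.34-fold and 2.45-fold. The 4 probe sets of *Stat3* disagreed, with log2 differences from 0.26 to 2.85 in pTAMs and from 0.68 to 4.63 in mTAMs.

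**Figure D4:**
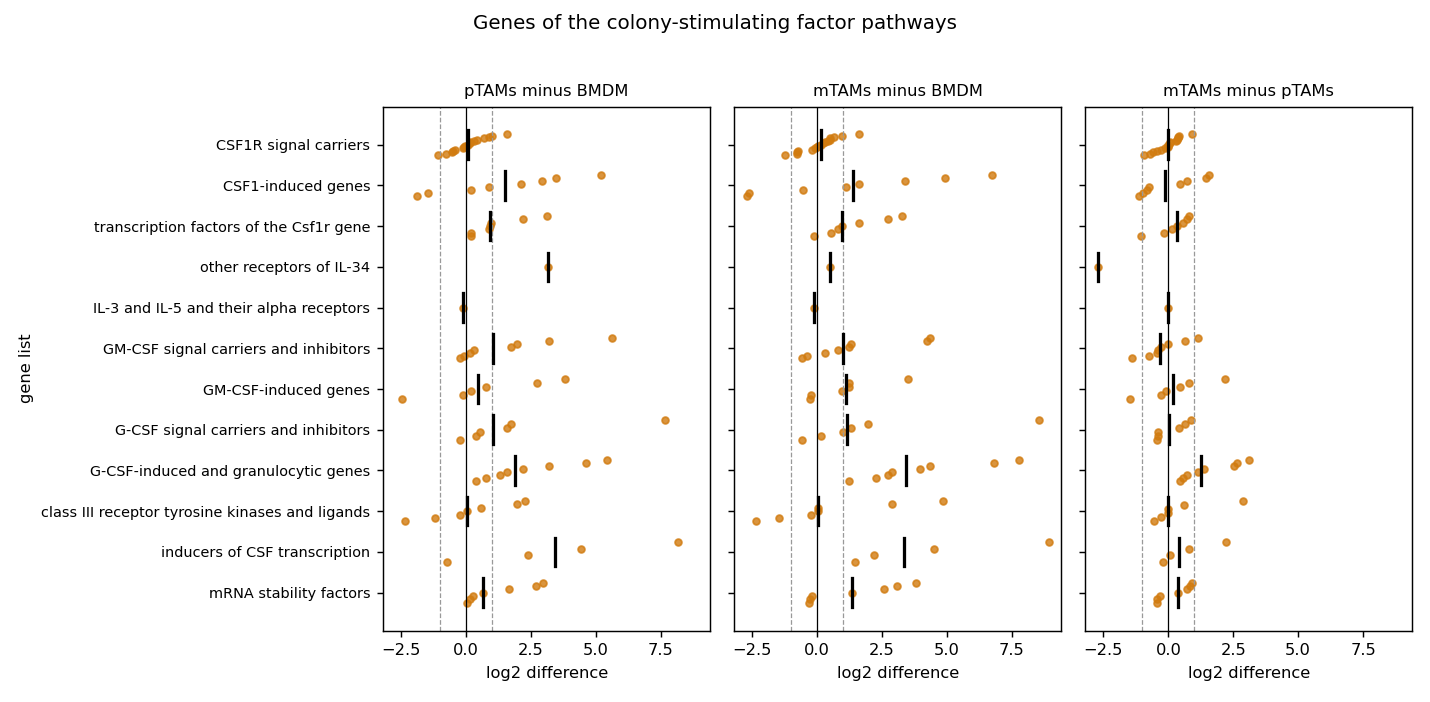
Log2 differences (horizontal axes) of the genes of 12 pathway lists (vertical axis) in the 3 comparisons, 1 point per compared gene, with the median of each list as a black bar and 2-fold as dashed lines. The list of G-CSF-induced and granulocytic genes has medians of 3.42 for mTAMs minus BMDM and 1.26 for mTAMs minus pTAMs, and the CSF1R signal carriers lie around 0.

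Of 4 compared cytokines that can switch on the genes of colony-stimulating factors, 2 were 2-fold or more above BMDM in pTAMs and 3 in mTAMs, with values at background raised to the floor. *Il1b* read 5.16 in BMDM, 13.30 in pTAMs and 14.08 in mTAMs, and *Il1a* 5.17, 9.58 and 9.65, with BMDM below the floor for each. *Tnf* read 8.37, 7.62 and 9.83 and was thus 4.63-fold higher in mTAMs than in pTAMs, whereas *Il33* read 3.91, 6.31 and 6.11. With BMDM at background, *Il33* was at least 1.68-fold higher in pTAMs and at least 1.46-fold in mTAMs, short of an established 2-fold. *Il17a* and *Ifng* lay below the floor on all 3 arrays.

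The genes with the most similar shape over the 3 arrays were sought among 10975 genes, by the root mean square distance of values after each gene's mean was subtracted. For *Csf3r*, they were *Hdc*, which encodes histidine decarboxylase (distance 0.04), *Car4*, a carbonic anhydrase gene (0.08), and *Col3a1*, a collagen gene (0.19), and no other gene lay within 0.2. In the marker lists, *Hdc* stands under mast cell or basophil, *Car4* under alveolar macrophage and *Col3a1* under fibroblast, and none of them under neutrophil. *Car4* and *Col3a1* were below the floor in BMDM, so their distances rest partly on background values. For *Csf1*, they were *Sorl1* (0.07), *Csrnp1* (0.08) and *Junb* (0.11), with 8 genes within 0.2. *Csf3* lay nearest to *H2-DMa* (0.02), *Bnip3* (0.02) and *Fmnl2* (0.05), *Csf2rb* to *Chst11* (0.0047), *Tgfbr3* (0.02) and *Rap1gap2* (0.04), and *Csf2rb2* to *Ltb4r1* (0.03), *Sowahc* (0.07) and *Tet2* (0.09). *Tgfbr3* and *Csf3* itself were below the floor in BMDM, with the same limit. The number of genes within 0.2 was 41 for *Csf3*, 38 for *Csf2rb* and 37 for *Csf2rb2*. For *Csf2ra*, whose range is small, 536 genes lay within 0.2, with *Pigx*, *Rsrc2* and *Notch2* in front at 0.01.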

How the data were processed

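Total RNA of cultured BMDM and of sorted TAMs was hybridised to Affymetrix arrays, 1 each for BMDM, pTAMs and mTAMs. Every comparison with BMDM thus also compares cultured with sorted cells. The authors deposited log2 values made with RMA, which corrects the background, equalizes the distributions of the arrays by quantiles and summarizes each probe set. No source used here names its version. Such scaling hides a shift of the whole transcriptome. Equal values on the 3 arrays were found for 21.4% of the 45037 probe sets. Probe sets with a single symbol in the platform annotation were used (34945), and all 9 members' gene IDs were found in a RefSeq table. Differences of at least 1 log2 unit were called. Where the lower array was at background, the floor took its place in the fold, which is then a minimum, while calls and list medians used the measured values. The members and the 12 pathway and 14 marker lists were chosen with earlier results of these data known. From each pathway list, up to 3 genes per direction past 2-fold were named, beside others chosen after their values were seen. From marker lists, up to 3 genes with the largest difference and defining markers at background were named, others after their values were seen. List genes without a probe set of a single symbol here were left out. The computation of the calls was tested on simulated data with known differences, which says nothing about the spread between animals. Alternatives were median-centring, quantile normalization, cyclic loess, averaging each gene's probe sets, a floor raised by 1 log2 unit, omitting the floor, values raised to the floor and a 3-fold threshold. Python 3.11.15, numpy 2.4.6, pandas 2.3.3, matplotlib 3.10.9, R 4.3.3 and limma 3.58.1 were used.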

Additional observations from a re-analysis of the deposited data

Results flagged for a closer look

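A probe set that the platform annotation gives to both *Csf2rb2* and *Csf2rb* was outside the counts above and had a signal above that of the BMDM array. It read 7.18 in BMDM, 8.60 in pTAMs and 9.04 in mTAMs. The log2 difference was 1.42 for pTAMs minus BMDM and 1.86 for mTAMs minus BMDM, in the direction of the probe sets of either gene and smaller in size.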

How the results depend on the processing

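The number of members at least 2-fold higher was 5 in pTAMs against BMDM under all 8 alternatives, and 6 in mTAMs against BMDM, or 5 after median-centring and at 3-fold, where *Csf2ra* was lost. At 3-fold, *Csf3* stayed in the count for mTAMs by its measured difference of 2.01. With BMDM at background, only at least 2.06-fold is established for it. In mTAMs against pTAMs the number was 2, or 3 with the mean of all probe sets, which added *Csf2ra*. At 3-fold, 0 members were lower in mTAMs than in pTAMs in place of 1, *Csf3*. With the mean of all probe sets, *Csf1* differed by 2.07, 3.45 and 1.38 for pTAMs minus BMDM, mTAMs minus BMDM and mTAMs minus pTAMs. *Csf2ra* then differed by 1.95 for mTAMs minus BMDM and 1.19 for mTAMs minus pTAMs. With values raised to the floor, *Csf3* differed from BMDM by 2.11 in pTAMs and 1.04 in mTAMs. No member that was called reversed its direction. *Csf1r* stayed below BMDM, with -0.15 to -0.06 in pTAMs and -0.61 to -0.19 in mTAMs. At 3-fold, 3 pathway genes were lower in pTAMs and 3 in mTAMs than in BMDM, and in mTAMs against pTAMs 6 were higher and 1 lower. Cyclic loess normalization and the mean of all probe sets each left 3 pathway genes lower in mTAMs than in pTAMs, in place of 5. The fewer calls at 3-fold follow from the threshold. The cause of the others was not tested. No paired analysis was possible because each group has 1 array, and no replicate could be left out. Signals near the floor limit what can be said of *Csf2*, *Il34* and, in BMDM, *Csf3*.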

Other observations

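Receptors and ligands related to CSF1R, the class III receptor tyrosine kinases, did not share a direction, with 2 of 7 higher and 2 lower than in BMDM in mTAMs. In pTAMs 2 were lower and, with background raised to the floor, 1 was higher. *Kit*, the receptor of stem cell factor, which marks mast cells and progenitors, read 4.00 in BMDM, 5.95 in pTAMs and 8.83 in mTAMs, so that mTAMs exceeded pTAMs by 7.36-fold. Its ligand *Kitl* was highest in BMDM, with 9.43, 7.08 and 7.07. *Pdgfra* read 4.94, 7.20 and 7.82, *Pdgfb* read 8.74, 7.55 and 7.27, and *Flt3*, a receptor of dendritic cell progenitors, read 5.69, 5.72 and 5.72. Of 6 mast cell or basophil markers, 3 exceeded pTAMs by 2-fold or more in mTAMs with background raised to the floor. They were *Mcpt8* (4.66, 4.89 and 8.90), *Hdc* (6.20, 9.99 and 12.40) and *Gata2* (5.71, 5.71 and 7.15). By its other probe set, *Gata2* differed by 0.46 between mTAMs and pTAMs. *Cpa3* read 4.91, 4.51 and 6.51, and *Ms4a2* and *Fcer1a* lay below the floor on all 3 arrays.

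The mRNAs of colony-stimulating factors carry AU-rich elements, to which proteins that destroy or stabilize mRNAs bind. Of 7 genes for mRNA stability factors, 3 were at least 2-fold higher in pTAMs (median log2 difference 0.63) and 4 in mTAMs (median 1.34) than in BMDM, and none was 2-fold lower. *Zfp36*, which encodes tristetraprolin, read 9.63, 12.59 and 13.42, *Zfp36l1* 9.07, 11.77 and 12.15, and *Zc3h12a*, which encodes the nuclease regnase-1, 6.06, 7.72 and 8.62. *Hnrnpd* (10.92, 11.07 and 10.65), *Elavl1*, which encodes the stabilizing protein HuR (9.99, 10.01 and 9.68), and *Khsrp* (9.05, 9.30 and 8.85) were within 2-fold in every comparison.

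Other marker lists are given here as values. The mean of 3 monocyte markers was 8.10 in BMDM, 11.63 in pTAMs and 10.89 in mTAMs, and that of 6 dendritic cell markers 5.02, 6.24 and 6.0. The 6 markers of lung epithelium had means of 5.23, 5.30 and 7.16, and the 6 of endothelium 5.28, 5.64 and 5.33. For NK cells 1 of 3 markers was above the floor on any array, for B cells 1 of 4, and for eosinophils 1 of 3.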
